A study of Mus musculus with 6 samples.

Results

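Cytoplasmic ribosomal protein genes were examined in newly made RNA of mouse embryonic stem cells after the degradation of ZFP207. The members were the rows of the gene table whose symbol is Rps or Rpl with a number and an optional copy suffix, or Rpsa, Rplp0, Rplp1 or Rplp2, without names that end in -ps. This choice used symbols and no measured value, and gave 90 of the 55401 rows, 36 for the small subunit and 54 for the large subunit. By RefSeq, 85 members are protein-coding and 5 are annotated as pseudogenes (Rps4l, Rps12l1, Rpl6l, Rps3a2 and Rps3a3). A member was counted as a snoRNA host where RefSeq places a snoRNA gene inside its interval, which held for 30 members, 10 of the small and 20 of the large subunit, with 59 snoRNAs among them. Among the members, 89 passed the filter on low counts and Rps12l1, with between 2 and 17 counts per library, did not.

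The depleted group had 3 libraries of ZFP207-AID cells, which carry an auxin-inducible degron on the zinc finger protein ZFP207, cultured with the auxin IAA for 5 h. The control group had 3 libraries taken at 0 h, without IAA. Titles of the control libraries name the degron line although WT is given as their genotype, and they were taken as degron cells without IAA. All 6 libraries came from embryonic stem cells of the 129/Ola line grown in serum with leukemia inhibitory factor, and RNA labelled with 4-thiouridine (4sU) was captured on beads through biotin. Whether the line is a single clone is not stated in the labels. Untagged cells with IAA were not analysed here, and effects of IAA and of ZFP207 loss cannot be told apart. The series asks how ZFP207 acts with U1 snRNP, the particle that recognises the start of an intron.

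Ribosomal protein genes encode the structural proteins of the small and the large ribosomal subunit, which are needed in matched amounts. Most of them are short, highly transcribed genes whose transcription starts in a pyrimidine run called the terminal oligopyrimidine (TOP) tract, through which mTOR signalling and LARP1 control the translation of the mRNA. Many carry small nucleolar RNAs (snoRNAs) in their introns, and the snoRNA, a guide for the modification of ribosomal RNA, is released from the intron after splicing. Fast-growing cells such as embryonic stem cells make large amounts of these transcripts, and human Diamond-Blackfan anaemia is caused by loss of a copy of one of several of these genes.

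The members were short and scattered. Their genomic length had a median of 3138 bases (range 496 to 11774), 89 of them lay under 10 kb, and they occupied 19 chromosomes. RefSeq windows around the transcription start (GRCm38.p6, the assembly that mm10 names) were at hand for 65 protein-coding members. A TOP-like tract, a C followed by at least 7 letters that are each C or T, was searched on the sense strand from 50 bases before to 50 bases after the annotated start. It occurred in 52 of the 65 members (80.0%), against 28.7% of all 27025 windows, with a median length of 10 letters in the members and a maximum of 20. Windows of 30 bases centred on the longest tract are shown for members that were called higher, for Rpl4, Rpl5, Rpl11 and Rpl38, and for the copies Rpl10l and Rpl39l, with that tract in capitals, to show how the tracts differ. Rpl10l had no such tract, and its window is centred on the annotated start and has no capitals.
Rpl27: gtcatcctcgCTCCTCCCTCCacacgccgg
Rpl12: ggaggaggcaacggtgcaaCTTTCTTCggt
Rpl27a: gtgagCTCCTCCCTTTTCCCTTTCTgccac
Rpl7a: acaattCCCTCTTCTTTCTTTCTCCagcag
Rpl38: gaagcctcgttCTTTCCCCgttctcttcgg
Rpl4: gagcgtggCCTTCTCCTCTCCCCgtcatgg
Rpl5: gcctacagccaCTCTTTCTCacgtcgcttg
Rpl11: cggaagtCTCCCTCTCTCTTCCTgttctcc
Rpl10l: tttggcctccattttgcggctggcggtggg
Rpl39l: aacacccactgCCTCTCCCTagctcccagg
These lie at chr11:101442193-101442222 for Rpl27, chr2:32961732-32961761 for Rpl12, chr7:109519186-109519215 for Rpl27a, chr2:26910789-26910818 for Rpl7a, chr11:114668569-114668598 for Rpl38, chr9:64173405-64173434 for Rpl4 and chr5:107900497-107900526 for Rpl5. They also lie at chr4:136053357-136053386 for Rpl11, chr12:66284387-66284416 for Rpl10l and chr16:10170191-10170220 for Rpl39l. Rpl11 and Rpl10l are read from the minus strand and the others from the plus strand.

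Some windows lie beside the annotated start from which the promoter windows were taken and do not hold it. Their tracts begin at position -42 from that start in Rpl27, 39 in Rpl12 and 26 in Rpl4. The position is -26 in Rpl39l, -20 in Rpl5 and 14 in Rpl11. In Rpl5, Rpl39l, Rpl7a and Rpl38 that start is not the edge of the RefSeq gene interval. Their intervals begin at 107900508, 10170197, 26910685 and 114667818. The printed windows of Rpl5 and Rpl39l hold that edge, and those of Rpl7a and Rpl38 lie inside the interval. The tract of Rpl27a is the longest, with 20 letters, and that of Rpl7a has 19. Both reach across the start used for the promoter windows, which in Rpl7a is not the edge of the gene interval. The tracts of Rpl12 and Rpl38 have 8 letters, the shortest that the search accepts. In the whole 300-base windows, CCGGAAG, letters that ETS factors such as GABPA bind, occurred on either strand in 38.5% of the 65 members and 9.12% of all windows. ATGGCGG, letters that YY1 binds, occurred on either strand in 15.4% of members and 4.19% of all windows. CTCTTTCC, searched on the sense strand and itself a tract by the rule above where it lies near the start, occurred in 10.8% of members and 1.45% of all windows. The members with a TOP-like tract had a median log2 fold change (depleted over control) of 0.19, and the 13 without had 0.17.

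Before the fold changes, the libraries themselves have to be described, because those numbered 2 stood apart. Library totals lay between 14336811 and 23385133 counts in the depleted group and between 17613103 and 25916628 in the control group. The level of a member in depleted replicate 2 was a median of 0.717 times the mean of depleted replicates 1 and 3, and the same ratio in the control group was 0.688, whereas all tested genes with a count in every library had medians of 0.988 and 0.963. In 84 of 89 members replicate 2 was the lower in both groups. Zfp207 RNA had 695, 1467 and 596 CPM (counts scaled to a common library size with TMM factors) in depleted replicates 1 to 3, against 545, 1116 and 548 CPM in control replicates 1 to 3, and these RNA levels are no check of the depletion, which takes place on the protein. All 10 embryonic stem cell markers were detected, summing to 4929 to 5571 CPM in depleted and 4704 to 5186 CPM in control libraries. The 10 fibroblast markers summed to 2.99 to 5.96 CPM in depleted and 6.24 to 10.9 CPM in control libraries, with Col3a1, Dcn, Fap, Lum and Postn at 0 in all 6. The 9 primitive endoderm markers summed to 137 to 193 CPM in depleted and 122 to 179 CPM in control libraries. The share of counts from mitochondrially encoded genes was 5.93, 3.36 and 3.25% in depleted replicates 1 to 3, against 4.47, 3.90 and 3.14% in control replicates 1 to 3. The part of these differences in the results was not tested. Replicate numbers paired the libraries, so a fit with the number as a block (the paired fit) is given beside the unpaired fit.

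Differences in the summed level of ribosomal protein genes were small. Their summed level was 16996, 13090 and 18253 CPM in depleted replicates 1 to 3, against 16307, 11006 and 15703 CPM in control replicates 1 to 3. The depleted library was the higher in all 3 pairs, while the groups overlapped because both libraries numbered 2 were low. The members took 1.65, 1.23 and 1.88% of all counts in depleted replicates 1 to 3 and 1.65, 1.10 and 1.65% in control replicates 1 to 3, so the share was equal at this precision in pair 1 and higher after depletion in the other pairs. These are values of bulk samples, in which fewer cells of a type and less RNA per cell cannot be told apart. Fold changes compare a gene with the rest of the labelled RNA, since a shift shared by all of it is removed by the scaling.

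**Figure D1:**
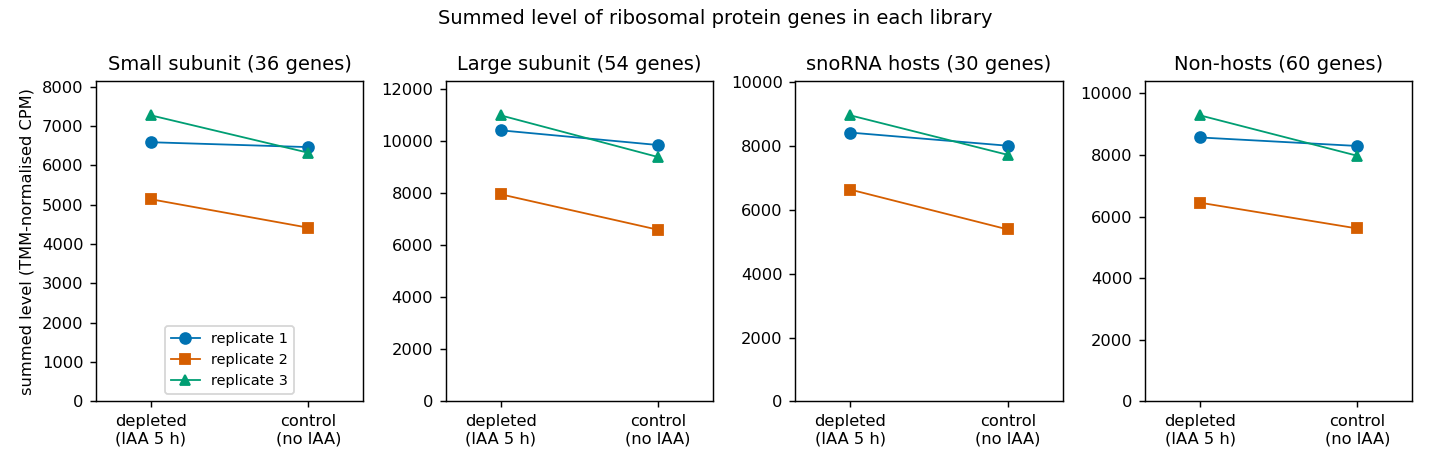
Summed level (TMM-normalised CPM, axis from 0) of small-subunit, large-subunit, snoRNA-host and non-host ribosomal protein genes in each library, depleted on the left and control on the right. Lines join libraries of the same replicate number, replicate 2 is the lowest in every panel, and each line is higher on the depleted side.

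The unpaired edgeR quasi-likelihood fit called no member in either direction (Benjamini-Hochberg adjusted p under 0.05) at a median SE of 0.22 over the members, where it called 0.0114% of 17573 genes higher and 0.78% lower. Only Rps4l had an unadjusted p under 0.05 (0.0453), against 10.9% of all genes, and DESeq2 without a block also called no member, where it called 3.65% of all genes in either direction. The paired fit called 7 members higher, which is 7.87% of those tested against 4.96% of all genes and 5.91% of the 5040 tested genes under 10 kb. The share of members called was thus near that of genes of like length. However, genes under 10 kb had a median level of 5.75 CPM and a median paired SE of 0.30. The members had 139 CPM and 0.09, so the sets are alike in length and not in level or precision. The paired fit called 0 members lower, against 7.9% of all genes and 2.42% of genes under 10 kb. At an unadjusted p under 0.05 it held 41 members (46.1%, against 27.9% of all genes and 1061 of the 5040 genes under 10 kb). DESeq2 with the same block, chosen after the data were seen, called 18 members higher, the 7 of edgeR among them. It called 6.47% of all genes higher.

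The direction was more uniform than the calls. The median log2 fold change over the 89 members was 0.19 in the unpaired fit and 0.20 in the paired fit, beside 0.02 and 0.02 over all genes tested and 0.14 and 0.14 over genes under 10 kb. The unpaired log2 fold change lay above 0 for 85 of the 89 members, with an interquartile range of 0.11 to 0.24. It also lay above 0 for 9182 of all 17573 genes and for 3187 of the 5040 genes under 10 kb. The depleted library was the higher in 63, 79 and 77 of 89 members in pairs 1 to 3, and in all 3 pairs for 49 members (55.1%, against 24.2% of all genes and 28.7% of genes under 10 kb). Only Rpl29 and Rps24 were lower in all 3 pairs (2.25%, against 24.1% and 13.6%). These sets differ in level, with a median of 139 CPM in the members, 13.4 CPM in all genes and 5.75 CPM in genes under 10 kb. Of the 23 nonribosomal TOP genes described below, 19 were higher and 0 lower in all 3 pairs. Of the 16 tested long noncoding snoRNA hosts, 12 were higher and 1 lower, so this direction was not particular to the members. The median of the members' pair ratios was 0.08, 0.23 and 0.27 on the log2 scale for pairs 1 to 3. The same medians were -0.01, 0.05 and -0.01 for all genes and 0.10, 0.13 and 0.17 for genes under 10 kb. In pair 1 the members thus lay below the short genes. Leaving out depleted replicate 2 moved the members' median to 0.35 and leaving out depleted replicate 3 moved it to 0.07. With control replicate 1 left out it was 0.31, and with control replicate 2 left out it was 0.03, at the level of all genes. In the paired fit it was 0.18 without replicate 2 and between 0.15 and 0.23 over the omission of each pair. The 95% interval of the paired fold change lay within 2-fold in either direction for 87 of the 89 members. Rpl3l and Rpl32l, both with under 50 counts in each library, were wider. Without copies, pseudogenes and Rpl32l, 77 members remained, and their paired log2 fold changes themselves lay between -0.16 and 0.46.

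**Figure D2:**
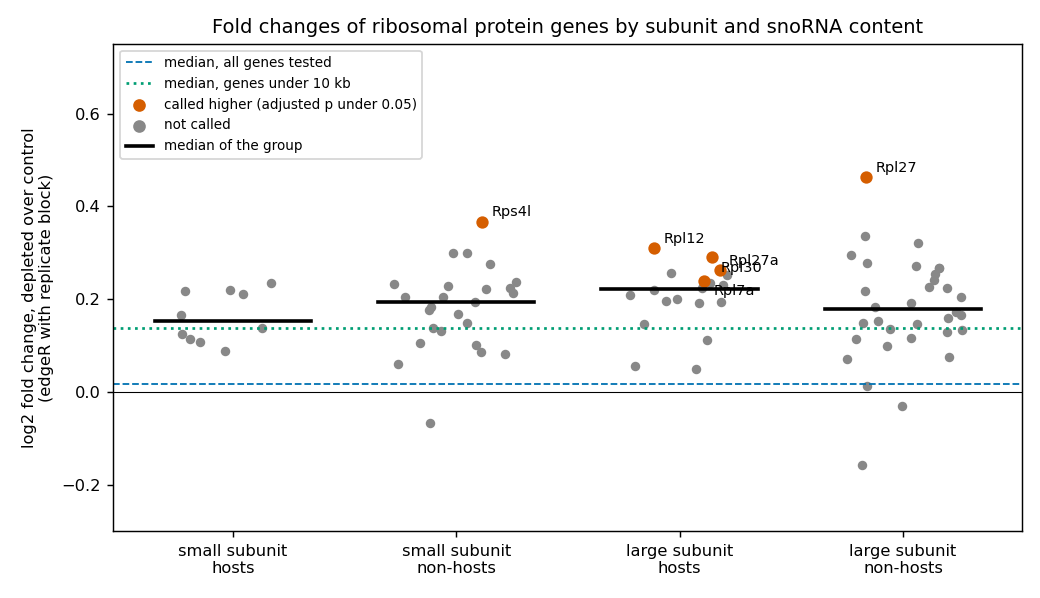
Log2 fold change (depleted over control) of each tested member in the edgeR fit with the replicate block, by subunit and snoRNA content, with Rpl3l (few counts) and 1 other member left out. Orange points are 6 members called higher and grey points were not called; black bars are group medians, and the lines mark the medians of all genes tested (0.02) and of genes under 10 kb (0.14), below every group median.

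Rpl27, a large-subunit protein whose gene is among those linked to Diamond-Blackfan anaemia, showed the largest paired change among members with over 100 counts in every library. Its level was 125, 84.8 and 128 CPM in depleted replicates 1 to 3, against 94.2, 58.9 and 93.8 CPM in control replicates 1 to 3. Depleted replicates 1 and 3 lay above all controls, and depleted replicate 2 lay within the control range. The paired fit gave a log2 fold change of 0.46 (SE 0.09, 1.38-fold, adjusted p = 0.00415) and the unpaired fit 0.45 (SE 0.23, adjusted p = 0.537). It was the only member called in the paired fit whichever pair was left out, with adjusted p between 0.0175 and 0.0387. The gene (ENSMUSG00000063316, chr11:101442245-101445596) holds no annotated snoRNA.

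The other 5 protein-coding members called in the paired fit, Rpl12, Rpl30, Rpl27a and Rpl7a among them, were all large-subunit snoRNA hosts. Rpl12, a protein at the base of the ribosomal stalk where elongation factors bind, had 464, 339 and 539 CPM in depleted libraries against 422, 256 and 411 CPM in controls. Its groups overlapped through depleted replicate 2, and the paired log2 fold change was 0.31 (SE 0.08, adjusted p = 0.0182). The gene (chr2:32961712-32964045) holds Snora65.

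Rpl30, whose protein in budding yeast binds its own pre-mRNA and blocks its splicing, had 221, 254 and 214 CPM in depleted libraries against 204, 180 and 179 CPM in controls. All depleted libraries lay above all controls, and depleted replicate 2 was the highest. The paired log2 fold change was 0.29 (SE 0.09, adjusted p = 0.0413). Rows named as Rpl30 pseudogenes held 9.22% of the counts of Rpl30 and those rows together, so reads could be divided between them.

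Rpl27a had 339, 227 and 346 CPM in depleted libraries against 294, 187 and 281 CPM in controls, and a paired log2 fold change of 0.26 (SE 0.07, adjusted p = 0.0275). Rpl7a, a host of 4 annotated snoRNAs, had 340.5, 211 and 348 CPM in depleted libraries against 299, 177 and 286 CPM in controls, and a paired log2 fold change of 0.24 (SE 0.07, adjusted p = 0.0413). In both genes the depleted library was the higher in every pair, by similar ratios, and the groups overlapped through depleted replicate 2. Neither kept its call in the paired fit when any pair was left out, and Rpl12 and Rpl30 kept theirs only without replicate 1. Rpl30 had an unpaired adjusted p of 0.495 and Rpl7a of 0.794, with Rpl12 (0.711) and Rpl27a (0.747) between them.

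Rps4l (chr6:148354656-148355596), a processed copy of the small-subunit gene Rps4x that RefSeq lists as a transcribed pseudogene, was the only small-subunit member called. It had 91.1, 78.8 and 108 CPM in depleted libraries, against 72.4, 66.2 and 75.3 CPM in controls, and the groups did not overlap. The paired log2 fold change was 0.37 (SE 0.09, adjusted p = 0.0229), and of the pair omissions only that of replicate 2 kept the call. Its row lies inside the interval of Tmtc1, with strand not known, and reads shared with Rps4x may be divided between the rows, so its level is uncertain. Rps4x itself had an unpaired log2 fold change of 0.13. Besides Rps4l and Rpl30, only Rpl32 had groups that did not overlap, with 169, 156 and 179 CPM in depleted libraries against 132, 147 and 143 CPM in controls and a paired adjusted p of 0.0651 in edgeR and 0.0347 in DESeq2. These 3 members are 3.37% of those tested, against 6.94% of all genes with every depleted library above every control.

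**Figure D3:**
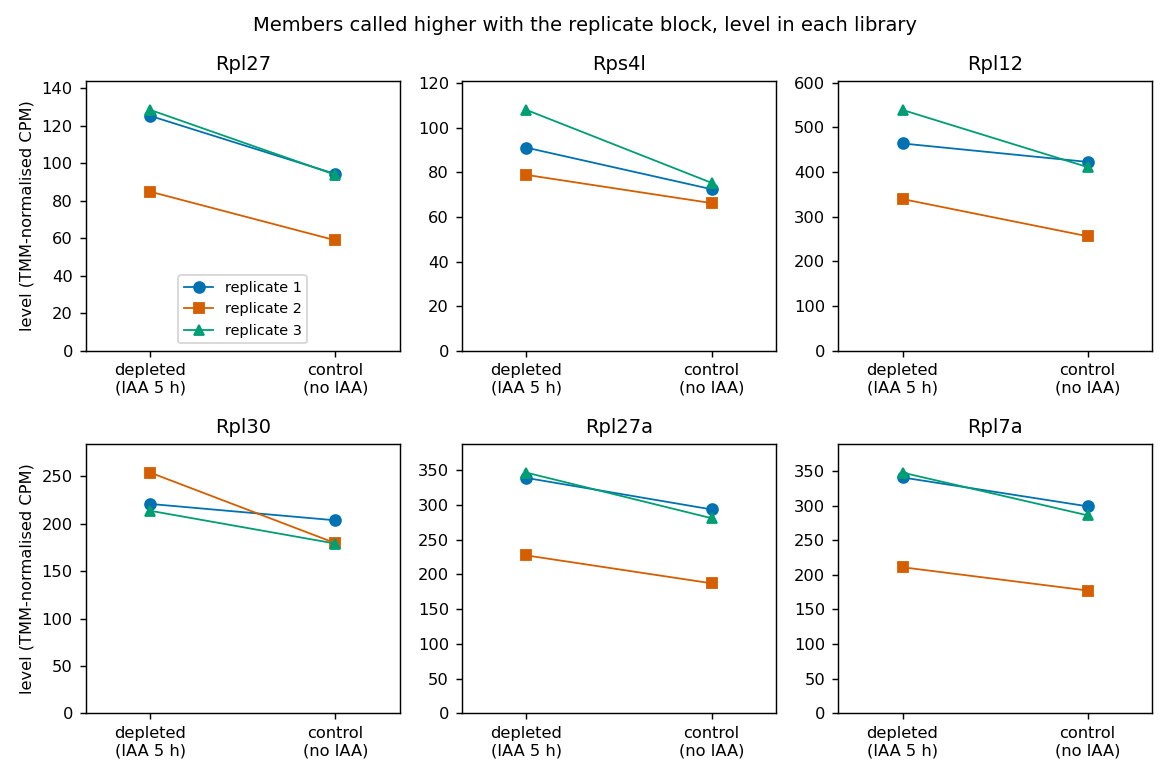
Level (TMM-normalised CPM, axis from 0) of 6 members called higher in the paired fit, depleted on the left and control on the right, with lines joining libraries of one replicate number. Every line is higher on the depleted side, and replicate 2 is the lowest in each panel except that of Rpl30, where depleted replicate 2 is the highest.

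Small-subunit and large-subunit genes had median fold changes that differed by less than the spread over pairs. The median log2 fold change was 0.18 for the 35 tested small-subunit members and 0.20 for the 54 of the large subunit, a difference of -0.02 against an SD of 0.03 over the 3 pairs. The paired fit called 1 small-subunit member (Rps4l) and 6 large-subunit members higher, 2.86% and 11.1%, against 4.96% of all genes. The difference between the shares of the 2 subunits was not tested. The summed small-subunit level per summed large-subunit level was 0.633, 0.646 and 0.662 in depleted replicates 1 to 3, against 0.657, 0.670 and 0.674 in control replicates 1 to 3. This ratio was lower in the depleted library of every pair, with means of 0.647 in depleted and 0.667 in control libraries, and the groups overlapped because depleted replicate 3 lay above control replicate 1.

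Among small-subunit members, Rpsa, the laminin-receptor ribosomal protein and host of 3 snoRNAs, had 641, 501.5 and 722.5 CPM in depleted libraries against 608, 412 and 587 CPM in controls. Its paired edgeR adjusted p was 0.0625 at a log2 fold change of 0.22, and DESeq2 with the block gave 0.00722. Its interval is overlapped by Gm5922. Rps29, a small zinc-binding protein, had the highest unpaired fold change of the protein-coding small-subunit genes, 0.35, and was higher in pairs 1 and 3 but not in pair 2. Its levels were 60.6, 37.1 and 81.7 CPM in depleted libraries against 44.0, 40.8 and 55.5 CPM in controls (paired adjusted p = 0.170, and 0.0222 without replicate 2). Rps24, a protein of the small subunit whose gene is linked to Diamond-Blackfan anaemia, lay slightly lower in every pair, with 616.1, 482 and 616.3 CPM in depleted libraries against 648, 496 and 653 CPM in controls. Its paired log2 fold change was -0.07, with a 95% interval of -0.21 to 0.08. Rps12, host of 3 snoRNAs, had a paired log2 fold change of 0.11 (adjusted p = 0.346).

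Rpl5 and Rpl11, which join 5S rRNA in a particle that can bind and inhibit MDM2, were not called by edgeR in either fit. Rpl5 had 540.1, 454 and 506 CPM in depleted libraries against 484, 354 and 478 CPM in controls, and its interval is overlapped by Dipk1a. Rpl11 had 145, 101 and 156 CPM in depleted libraries against 129, 86.9 and 136 CPM in controls. Each was higher in the depleted library of every pair with overlapping groups, and the paired log2 fold changes were 0.20 (edgeR adjusted p = 0.0966) for Rpl5 and 0.19 (edgeR adjusted p = 0.135) for Rpl11. DESeq2 with the block called Rpl5 higher (adjusted p = 0.0239) and not Rpl11 (adjusted p = 0.116). Rpl4, which lines the exit tunnel and holds 5 annotated snoRNAs, had 745, 595.5 and 630.4 CPM in depleted libraries against 634, 470 and 623 CPM in controls (paired edgeR adjusted p = 0.107, and 0.0284 in DESeq2 with the block). Rpl38, a large-subunit protein known from the translation of Hox mRNAs in the mouse embryo, had 52.99, 36.00 and 59.4 CPM in depleted libraries against 41.3, 30.6 and 44.6 CPM in controls. Its paired log2 fold change of 0.34 had an adjusted p of 0.0734. Rpl10, needed for the joining of the subunits and host of Snora70, differed least among the hosts, with a paired log2 fold change of 0.05 and a 95% interval of -0.15 to 0.25.

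Rpl29 had the lowest fold change of the members outside the copies. It had 14.7, 7.76 and 12.3 CPM in depleted libraries against 15.3, 9.85 and 13.0 CPM in controls. The depleted library was the lower in each pair, the groups overlapped, and the paired log2 fold change was -0.16 with a 95% interval of -0.58 to 0.27. Of the 20 members linked to Diamond-Blackfan anaemia, Rpl27 was the only one called in the paired fit, a share near the 4.96% of all genes called higher, and the median unpaired log2 fold change of these 20 was 0.19.

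snoRNA hosts among the members were all above 0 in log2 fold change, as were 55 of the 59 tested non-hosts. The median of the hosts was close to that of the non-hosts. The median was 0.21 for the 30 hosts and 0.19 for the 59 tested non-hosts, a difference of 0.02 against an SD of 0.05 over the 3 pairs. Within the large subunit the 20 hosts had a median of 0.23 and the 34 non-hosts 0.19. Within the small subunit the 10 hosts had 0.13 and the 25 tested non-hosts 0.18. The paired fit called 5 of 30 hosts and 2 of 59 non-hosts higher (16.7% and 3.39%, against 4.96% of all genes), and this difference was not tested. The hosts also had the higher median level, 234 CPM against 113 CPM in the non-hosts. The 14 hosts of 2 or more snoRNAs had a median of 0.19, with 2 called.

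Summed host level per summed non-host level was 0.983, 1.029 and 0.965 in depleted replicates 1 to 3, against 0.966, 0.960 and 0.969 in control replicates 1 to 3. It was higher in the depleted library of pairs 1 and 2 and lower in pair 3, and the groups overlapped. Of the 59 snoRNAs, 45 had a row in the table. In 13 of these rows, within 12 hosts, every library held exactly 1 count, as did 236 rows of the whole table, so these rows carry no information. The 32 other rows summed to 9.94, 10.2 and 9.48 counts per 1000 counts of the hosts in depleted replicates 1 to 3, against 9.74, 8.80 and 9.16 in control replicates 1 to 3. The ratio was the higher in the depleted library of each pair, and the groups overlapped through control replicate 1. Reads over a snoRNA inside an intron of an unspliced host and reads of the snoRNA itself cannot be told apart in these counts.

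Other snoRNA hosts and other TOP genes gave the following values, in the same fits and with the same libraries. Of 16 tested long noncoding hosts (Gas5 and Snhg genes) the paired fit called 7 higher and 0 lower, where it called 4.96% of all genes higher and 7.9% lower, and their median unpaired log2 fold change was 0.37. Gas5, a growth-arrest transcript that is itself a TOP RNA and snoRNA host, had 805, 574 and 755 CPM in depleted libraries against 566, 424 and 547 CPM in controls. All depleted libraries lay above all controls, and the paired log2 fold change was 0.47 (adjusted p = 0.000641). Of 23 nonribosomal TOP genes, 8 were called higher and 0 lower in the paired fit, against the same 4.96% and 7.9% of all genes, among them the elongation factor genes Eef1a1, Eef1b2 and Eef1d, the poly(A)-binding protein gene Pabpc1, Rack1 and Tpt1, and the median of the list was 0.19. The 23 genes thus had the same median log2 fold change at 2 decimals as the ribosomal protein genes. None of the genes in either list was called in the unpaired fit.

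The 78 mitochondrial ribosomal protein genes had a median of 0.05, below that of the cytoplasmic set. Their median level was also lower, 24.7 CPM against 139 CPM. In the paired fit 1 of them was higher (Mrps25), where 4.96% of all genes were called higher. The fit called 6 of them lower (Mrpl10, Mrpl24, Mrpl33, Mrpl45, Mrps10 and Mrps27), a share near the 7.9% of all genes called lower. Mrpl24, for example, had 48.8, 43.2 and 47.9 CPM in depleted libraries against 68.6, 72.3 and 75.3 CPM in controls, which did not overlap, with a paired adjusted p of 0.00200. The difference between the cytoplasmic and the mitochondrial set was not tested.

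Genes that act on ribosomal protein genes or their products were also read. Of 19 transcription and translation regulators, the paired fit called Myc, Gabpa and Sp1 higher (4.96% of all genes) and none lower (7.9% of all genes), and the median was 0.13. Myc, which drives ribosome production, had 113, 77.2 and 84.1 CPM in depleted libraries against 71.4, 52.7 and 70.3 CPM in controls, with a paired log2 fold change of 0.49 (adjusted p = 0.00782). All depleted libraries lay above all controls. Larp1, which binds TOP mRNAs, was also higher in every depleted library than in every control (458, 470.4 and 426 CPM against 401, 411 and 387 CPM) but was not called (paired adjusted p = 0.108), and Mtor had a paired log2 fold change of -0.08 (adjusted p = 0.623). Of 19 tested genes for chaperones and import receptors of ribosomal proteins, Hspa8 and Nap1l1 were called higher and Heatr3, Ipo7 and Rpf2 lower, where 4.96% of all genes were called higher and 7.9% lower. Heatr3, which carries the Rpl5 protein, had 67.4, 111 and 81.2 CPM in depleted libraries against 96.8, 128 and 108 CPM in controls (paired adjusted p = 0.0172). Of the 10 genes of the p53 and 5S particle list, the p53 target Cdkn1a was the only gene called higher in the paired fit (0.51, adjusted p = 0.00517). Rpf2, which is also on this list, was the only gene called lower. The same fit called 4.96% of all genes higher and 7.9% lower. Trp53 and Mdm2 were not called (paired adjusted p = 0.0828 and 0.238).

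Copies of ribosomal protein genes held the members with the widest spread. Rpl10l, a retrogene copy of Rpl10 known from testis (chr12:66283379-66284401), had 40.8, 9.58 and 41.8 CPM in depleted replicates 1 to 3, against 38.8, 6.09 and 43.8 CPM in control replicates 1 to 3. Rpl39l, a copy of Rpl39 also known from testis (chr16:10170197-10174911), had 4.96, 2.01 and 6.30 CPM in depleted libraries, against 5.18, 1.08 and 9.42 CPM in controls. Replicate 2 was the low library of both groups for both genes. The mean of replicates 1 and 3 was 4.31 times replicate 2 in the depleted group and 6.78 times in the control group for Rpl10l, and 2.80 and 6.75 times for Rpl39l. Rpl10 and Rpl39 had no such gap, with 373, 379 and 419 CPM in depleted libraries against 425, 296 and 424 CPM in controls for Rpl10. Rpl39 had 59.2, 46.5 and 67.2 CPM in depleted libraries against 46.1, 46.7 and 53.2 CPM in controls. Between depleted and control the paired log2 fold changes were 0.18 for Rpl10l and 0.01 for Rpl39l, neither called.

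**Figure D4:**
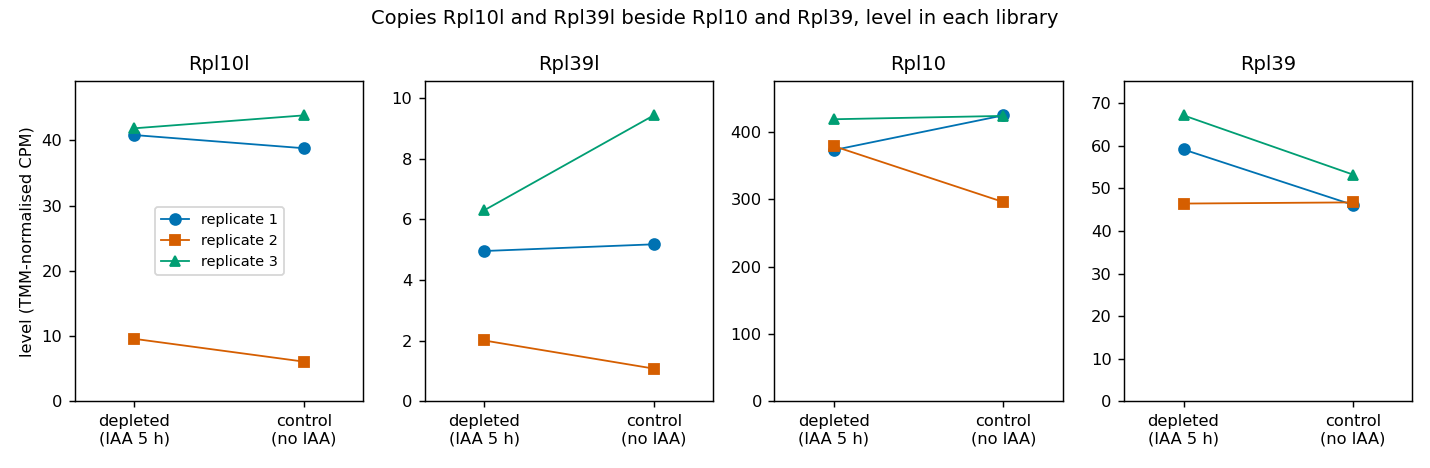
Level (TMM-normalised CPM, axis from 0) of Rpl10l and Rpl39l and of Rpl10 and Rpl39, depleted on the left and control on the right, with lines joining libraries of one replicate number. Replicate 2 lies far below replicates 1 and 3 in both groups for Rpl10l and Rpl39l, and not for Rpl10 or Rpl39.

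Apart from Rps4l, described above, none of the other copies was called in the paired fit. The 8 copies had a median paired SE of 0.14, against 0.09 over the members. The paired log2 fold change was 0.25 for Rpl22l1, 0.10 for Rpl36al, 0.08 for Rps27l and -0.03 for Rpl7l1, with adjusted p between 0.297 and 0.845. Rpl3l, a muscle copy of Rpl3, had the highest unpaired log2 fold change of all members, 0.95 with an SE of 1.30, from 9, 7 and 32 counts in depleted libraries against 0, 10 and 17 counts in controls, and its sign differed between pairs. Counting could also be divided with pseudogene rows. Rows named -ps after a member numbered 318 for 63 members, and they held over 10% of the joint counts for Rpl34 (66.4%), Rpl3 (30.2%), Rps13 (21.0%), Rps2 (20.8%), Rpl15 (17.2%) and Rps7 (11.8%).

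Across the 89 members the log2 fold change was nearly unrelated to genomic length (Pearson r = -0.03, Spearman rho = -0.13) and weakly related to mean CPM (r = -0.27, rho = -0.20). These are descriptions across genes of the same 6 libraries, which are not independent replicates. Between the ratios of pairs 1 and 2, r was -0.36 and rho -0.20 over 88 members. Between pairs 1 and 3, r was -0.04 and rho 0.20 over 88 members, and between pairs 2 and 3, r was -0.38 and rho -0.26 over 89 members. The 89 include Rpl3l and Rpl39l, which had few counts and ratios of opposite sign in pairs 2 and 3. Values without them were not computed.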

How the data were processed

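Deposited values were estimated counts of reads per gene, which the authors gave as whole numbers for 6 libraries. The submitters' processing notes list the build mm10 and the tools DESeq2 1.42.0, StringTie 2.2.1 and HISAT2 2.2.1, without roles. Strandedness, pulse length and spike-ins are not stated in the labels.

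The counts were tested in R 4.3.3 with edgeR 4.0.16 (filterByExpr, TMM, robust quasi-likelihood, Benjamini-Hochberg over 17573 genes, calls at 0.05), depleted over control, without a block and, as an alternative, with the replicate number as a block. Deviations from group means correlated across genes at 0.268, 0.387 and 0.321 for the same number and -0.265 to -0.025 for different numbers, so the numbers, which the labels do not explain, were taken to pair the libraries. Whether the libraries are separate cultures is not given beyond the word independent, and p-values therefore describe spread among these libraries, which may be technical. DESeq2 1.42.0, other scalings and filters, and omissions were alternatives. The test was tried on simulated data.

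Intervals, snoRNAs and promoter windows came from RefSeq (GRCm38.p6), matched by symbol for all 90 members. The planned requirement that a snoRNA share its host's strand could not be applied. Named are members called in either fit, the 5 highest and 5 lowest, the 3 with most CPM in each subunit, the copies, Rpl5 and Rpl11, members that failed the filter, and called genes of the other lists. Rpl32, Rpl39 and Rps4x, and uncalled genes of the other lists, were added after their values were seen. A member called higher in the paired fit counts in all totals and is not reported here by name. Members and lists were chosen with earlier results of these data known.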

Additional observations from a re-analysis of the deposited data

How the results depend on the processing

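Members called higher numbered 0 without a block and 7 with the replicate block, 1 to 7 when each pair was left out of that fit (5 without replicate 2, 1 without replicate 3) and 18 in DESeq2 with the replicate block. No setting called a member lower. The members' median log2 fold change of 0.19 ranged from 0.029 without control replicate 2 to 0.347 without depleted replicate 2, and from 0.15 to 0.23 with the replicate block. The difference between small and large subunit, -0.023, changed sign in the paired fit without replicate 1 (0.014) and in the unpaired fit without depleted replicate 1 (0.0023). It ranged from -0.051 to 0.014 over all omissions. The difference between hosts and non-hosts, 0.024, was -0.044 without control replicate 1 and -0.036 in the paired fit without replicate 1. It was also below 0 without depleted replicate 1 (-0.0014) and without depleted replicate 2 (-0.017), its range being -0.044 to 0.033. The cause of these changes was not tested. The share of counts differed by 0.12 percentage points, between -0.065 and 0.299 over omissions. Among single named members, none of them called in the unpaired fit, 334 values kept direction and side of the threshold, 25 passed it and 23 turned in sign without a call. With single libraries left out of the unpaired fit, the log2 fold change ranged from -0.12 to 0.12 for Rpl10, -0.43 to 0.48 for Rpl10l, -0.34 to 0.087 for Rpl29, -0.094 to 0.31 for Rpl36al, -0.73 to 0.49 for Rpl39l, -0.44 to 1.77 for Rpl3l, -0.12 to 0.038 for Rpl7l1, -0.018 to 0.26 for Rps12, -0.19 to 0.041 for Rps24 and -0.018 to 0.22 for Rps27l. In the paired fit the sign also turned for Rpl10 without replicate 2 (-0.10), for Rpl7l1 without replicate 1 (0.0063) and for Rpl39l in full (0.014), without replicate 1 (0.064) and without replicate 3 (0.36), and Rpl39l had 0.048 in DESeq2 with the replicate block. Depth limits Rpl3l, Rpl32l, Rpl39l, Rpl6l and Rps12l1. Other scalings, filters and the textbook host list, and leaving out copies and pseudogenes, moved no median or difference by more than its SD over pairs. With 3 libraries a group, the unpaired fit had a median SE of 0.22 over the members and the paired fit 0.09.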
